A study of Mus musculus with 9 samples.

Results

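The genes described here make amino acids, carry them across membranes and load them onto transfer RNA (tRNA). They are 33 mouse genes given by name and matched by symbol among the 46958 genes of the count table. They fall into 10 enzymes of amino acid synthesis, 10 amino acid transporters, and 13 genes made up of cytosolic tRNA synthetases and the tRNA export factor Xpot. All 33 were found, and 32 had enough counts to be tested. Cbs, an enzyme on the route from methionine to cysteine, had at most 11 counts in a library and was left out of the tests.

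RNA was sequenced from plasma cells, the antibody-secreting cells of the B lineage, taken from mouse spleens with beads against the surface protein CD138. The study asks whether plasma cells are harmed by making the isolated kappa chain of a patient with LCDD, light chain deposition disease. The animals were 3 months old, had not been immunized and were of a mixed C57/BL6x129/SVxBALB/c background. Each library came from the whole CD138+ fraction of 1 spleen, which the series' design text describes as enriched and not pure. The genotypes were WT, DH-LMP2A and kFRA, with 3 mice each, and no treatment was given. The labels give the genotypes by name only. From what is known of these lines, DH-LMP2A mice carry the LMP2A gene of a herpesvirus at the immunoglobulin heavy-chain locus, and their plasma cells lack heavy chains. kFRA mice carry the light chain of LCDD at the kappa locus, and in the published model this was combined with the DH-LMP2A allele. In the files, heavy-chain constant genes took 21.9% to 27.2% of the counts in WT libraries. They took 1.09% to 1.16% in DH-LMP2A libraries and 0.88% to 0.97% in those of kFRA. Heavy-chain transcripts were thus far lower in both kFRA and DH-LMP2A than in WT, though not absent. DH-LMP2A is therefore the closer comparison for kFRA, and the contrast of kFRA with WT holds more than 1 genetic difference.

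Plasma cells secrete large amounts of antibody, and so have a high demand for amino acids and for charged tRNA. Many of the genes below are known targets of ATF4, a transcription factor that is made when the kinase GCN2 (Eif2ak4) senses uncharged tRNA or when PERK (Eif2ak3) senses unfolded protein in the endoplasmic reticulum. ATF4 binds with C/EBP proteins to composite elements (CARE) whose core has the letters TGATGNAA, where N is any base, and works beside CHOP (Ddit3).

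The libraries held between 15449026 and 21558128 counts. Levels are given as CPM, counts per 1000000 counted reads. With these totals 3 counts correspond to 0.139 to 0.194 CPM, a range that comes from the depth of the libraries alone. Immunoglobulin genes took 27.3% to 32.5% of the counts in DH-LMP2A, 29.2% to 45.4% in kFRA and 43.6% to 55.4% in WT. CPM values use TMM scaling (the trimmed mean of M values), since the immunoglobulin share changes how many counts are left for other genes. kFRA replicate 2 stood apart from the other kFRA libraries, with the lowest immunoglobulin share and with 725 summed CPM for 8 genes of dividing cells, against 270.0 and 309. These sums were 570 to 831 CPM in DH-LMP2A and 465 to 580 CPM in WT. By this measure kFRA replicates 1 and 3, and not replicate 2, lay below every library of the other genotypes. kFRA replicate 2 is given by name wherever a result rests on it. Xist was at 495 to 924 CPM in 5 libraries of all 3 genotypes and reached no more than 4.49 CPM in the remaining 4. In kFRA only replicate 2 was high (734 CPM, against 1.30 and 3.14 CPM in replicates 1 and 3). In DH-LMP2A only replicate 3 was low, and in WT only replicate 2. The genotypes thus differed in their mix of libraries with and without Xist, and kFRA replicate 2 stood apart in this too. The 8 plasma cell markers summed to 20220 to 31960 CPM in kFRA, 33980 to 46890 in DH-LMP2A and 18780 to 24130 in WT. DH-LMP2A thus lay above both other genotypes without overlap. Most of each sum came from Jchain (14680 to 38650 CPM), while Tnfrsf17 was at 12.4 to 59.5 CPM. Of these 8 genes, 7 had a positive log2 fold change in each comparison with WT, and Tnfrsf17 was the exception. In kFRA against DH-LMP2A 1 of 8 was positive. Mzb1 had means of 2473, 3694 and 1059 CPM in kFRA, DH-LMP2A and WT, and Tnfrsf17 of 15.3, 22.0 and 49.3 CPM. Markers of B cells summed to 233 to 286 CPM in kFRA, 412 to 591 in DH-LMP2A and 305 to 612 in WT. Myeloid markers summed to 1190 to 1844, 635 to 1802 and 2188 to 3876 CPM in the same order, erythroid markers to 1039 to 2465, 2294 to 12130 and 46.9 to 313 CPM, and T and NK cell markers to 30.8 to 48.8, 38.4 to 73.4 and 41.7 to 97.4 CPM. No marker gene was at 0 counts in any library. In such mixed RNA, fewer cells of a type and less RNA per cell cannot be told apart.

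The stretches below are shown because they hold the CARE core upstream of members whose levels are described afterwards. They come from RefSeq promoter sequences on GRCm38.p6, which were matched for 24 of the 33 genes, and are written 5′ to 3′ on the strand of the gene. Capitals mark the core, which reads as its reverse complement where the match is on the other strand.
Asns, chr6:7693214-7693243, minus strand: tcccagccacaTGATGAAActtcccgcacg
Slc7a11, chr3:50443633-50443699, minus strand: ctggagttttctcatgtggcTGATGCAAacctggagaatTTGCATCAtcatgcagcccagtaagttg
Pycr1, chr11:120643824-120643871, minus strand: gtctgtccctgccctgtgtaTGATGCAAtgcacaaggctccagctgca
Gars, chr6:55037951-55037998, plus strand: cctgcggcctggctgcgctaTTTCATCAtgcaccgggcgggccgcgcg
Tars, chr15:11399659-11399693, minus strand: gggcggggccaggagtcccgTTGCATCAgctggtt

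The core begins 23 bases before the RefSeq start site in Asns, 66 and 47 bases before it in Slc7a11, 103 in Pycr1, 30 in Gars and 15 in Tars. The stretch of Asns lies inside an exon of the longer gene model of the count table. In windows of 250 bases before to 50 bases after the start site, searched on both strands, TGATGNAA was found in 9 of the 24 genes (Aars, Asns, Gars, Iars, Pycr1, Slc1a4, Slc7a11, Tars and Yars). The share over all genes with such windows was 4.51% of 27025. The longer form TGATGCAAT, which overlaps TGATGNAA, was found in Aars, Iars and Pycr1 and in 0.222% of all genes. The E-box CACGTG was found in Aars, Aldh18a1, Cbs, Iars, Tars and Xpot, against 8.09% of all genes. The windows of Slc6a9 and Slc3a2 held none of these letters, which says nothing of elements outside them.

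**Figure D1:**
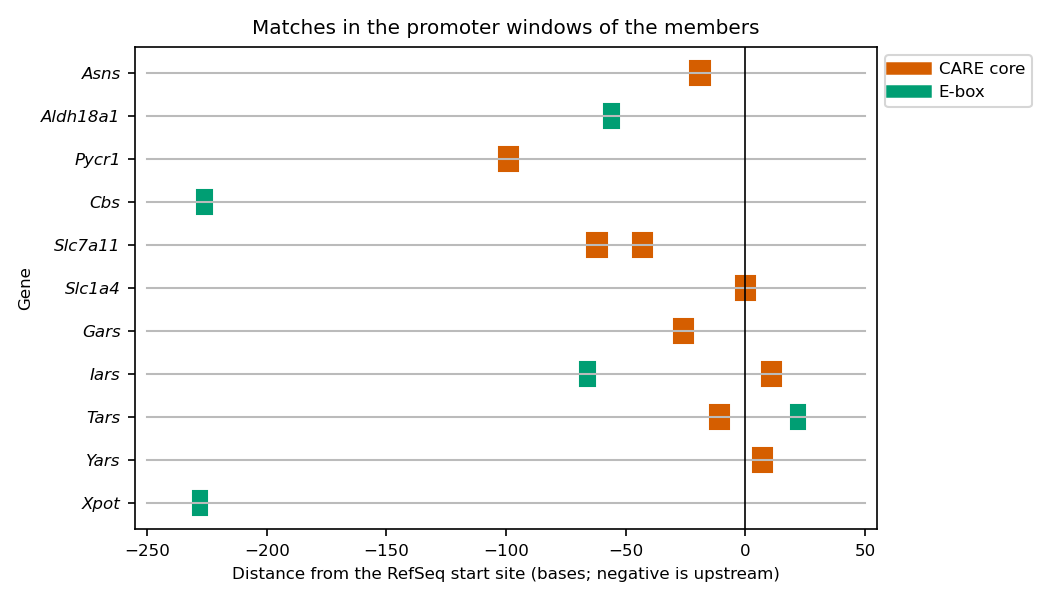
Positions of the CARE core (TGATGNAA) and the E-box (CACGTG) in the promoter windows of members that hold one (Aars is not drawn), with the distance from the RefSeq start site in bases on the x axis and 1 line per gene. Slc7a11 holds 2 cores, and the cores of Asns, Gars and Tars lie within 30 bases upstream of the start site.

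Few of the genes passed the test in any comparison, and those that did were Asns, Slc6a9, Slc7a11 and Slc3a2. In kFRA against DH-LMP2A, 2 of the 32 rose (Asns and Slc6a9) and 1 fell (Slc7a11). The share of all 14199 tested genes past the threshold in this comparison was 5.02%, with 1.73% higher and 3.3% lower. Slc7a11 also fell in kFRA against WT and no member rose, where 17.8% of all genes passed (6.68% higher and 11.1% lower). In DH-LMP2A against WT, Slc3a2 fell and no member rose, where 12.4% of all genes passed (5.07% higher and 7.3% lower). At an unadjusted p under 0.05, 6 members were higher and 2 lower in kFRA against DH-LMP2A (10.3% and 12.1% of all genes), 7 higher and 3 lower in kFRA against WT (15.2% and 19.8%), and 0 higher and 3 lower in DH-LMP2A against WT (10.9% and 15.7%). The DESeq2 Wald test called 3 higher and 1 lower in the first comparison (4.16% and 5.74% of all genes), 4 and 3 in the second (10.8% and 13.9%), and 0 and 3 in the third (7.21% and 10.6%). The 3 lower against WT were Aldh18a1, Slc3a2 and Slc7a11 in kFRA and Asns, Slc3a2 and Slc6a9 in DH-LMP2A, by either count. Without regard to the test, 24 of 32 log2 fold changes were positive in kFRA against DH-LMP2A, with a median of 0.23, beside 49.3% positive and a median of 0 over all genes. Against WT, 19 of 32 kFRA values were positive with a median of 0.20, beside 47.3% and −0.04 over all genes, and in DH-LMP2A against WT 14 of 32 with a median of −0.04, beside 49.1% and −0.01. The members' median in kFRA against DH-LMP2A was 0.39 without kFRA replicate 2 and 0.06 without kFRA replicate 3. The comparisons with DH-LMP2A use the same 3 DH-LMP2A libraries, and those with WT the same 3 WT libraries, so that their values are not independent.

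With scaling by library size alone, the median of all genes moved to −0.14, 0.17 and 0.33 in kFRA against DH-LMP2A, kFRA against WT and DH-LMP2A against WT, and the members' medians to 0.08, 0.42 and 0.31. On that scale 2 members were called higher and 1 lower in kFRA against DH-LMP2A (0.894% and 2.54% of all genes), 9 and 1 in kFRA against WT (16.6% and 6.46%), and 4 and 1 in DH-LMP2A against WT (14.5% and 3.65%). The split of all genes past the threshold then became 127 higher and 361 lower, 2363 higher and 917 lower, and 2053 higher and 518 lower, against 245 and 468, 948 and 1575, and 720 and 1036 with TMM.

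**Figure D2:**
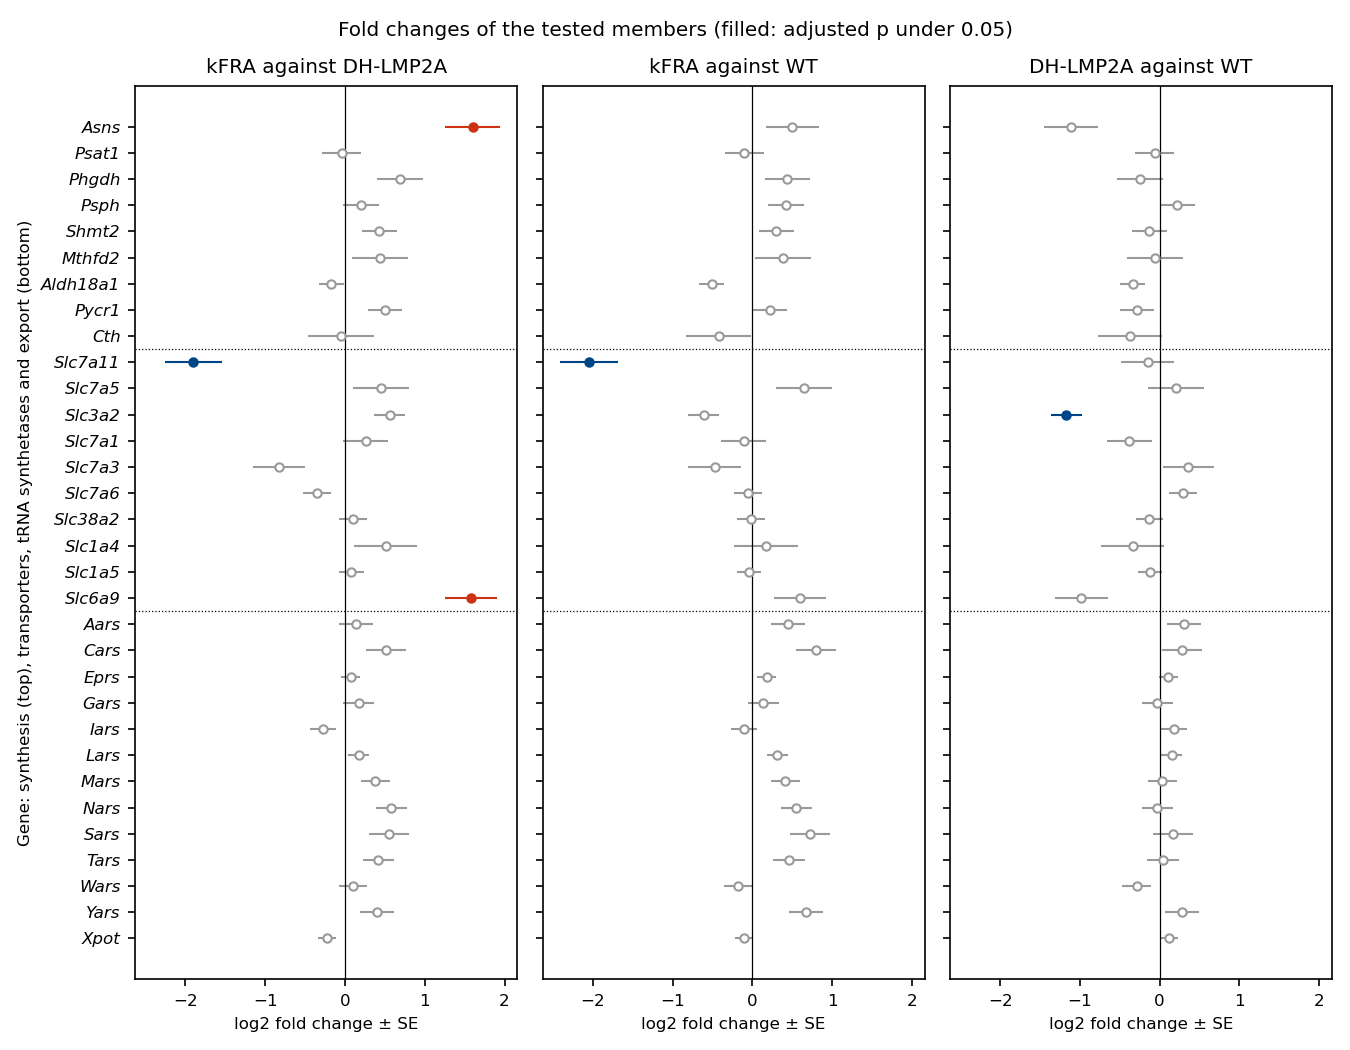
Log2 fold change of each tested member with its standard error (SE) in the 3 comparisons, filled where the adjusted p-value was under 0.05. Asns (1.60) and Slc6a9 (1.58) stand to the right and Slc7a11 (−1.90) to the left in kFRA against DH-LMP2A, and Slc3a2 (−1.17) is the member past the threshold in DH-LMP2A against WT.

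Among the enzymes of synthesis, Asns was the gene that passed, and it rose in kFRA against DH-LMP2A. Asns makes asparagine from aspartate and glutamine, and lies on the minus strand of chromosome 6 (7675169 to 7693254, GRCm38). It was at 90.6, 41.4 and 108 CPM in kFRA replicates 1, 2 and 3. In DH-LMP2A it was at 25.8, 22.7 and 30.4 CPM. In WT it was at 44.7, 48.5 and 76.9 CPM. Every kFRA library lay above every DH-LMP2A library, while kFRA replicate 2 lay just below the lowest WT library and far below the other kFRA libraries. The rise over DH-LMP2A was 3.04-fold (log2 fold change 1.60, SE 0.342, adjusted p = 0.0289 by edgeR). Against WT the kFRA libraries overlapped (log2 fold change 0.50, SE 0.334, adjusted p = 0.31 by edgeR). All DH-LMP2A libraries lay below all WT libraries, at a log2 fold change of −1.11 that did not pass (SE 0.339, adjusted p = 0.0652 by edgeR). The call in kFRA against DH-LMP2A rested on the full set of libraries: the adjusted p was 0.11, 0.107 and 0.0567 without DH-LMP2A replicates 1, 2 and 3, 0.112 and 0.0962 without kFRA replicates 1 and 3, and 0.0023 without kFRA replicate 2, with log2 fold changes of 1.32 to 1.98. It was 0.488 with a covariate of markers of other spleen cells, 0.0715 with one of Xist and 0.0505 in a fit of the 6 libraries alone. The marker covariate, a mean log2 level, was lower in every kFRA library (3.66, 4.26 and 4.20) than in any other library (4.31 to 5.05). It is therefore confounded with both kFRA contrasts, and a call lost with it does not settle what the markers account for.

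No enzyme of the serine route passed. Phgdh, which opens the route from a glycolytic intermediate to serine, was at 121 to 257 CPM in kFRA, 115 to 144 CPM in DH-LMP2A and 123 to 198 CPM in WT. Against DH-LMP2A the kFRA libraries stood at a log2 fold change of 0.69 (SE 0.287, adjusted p = 0.198 by edgeR). kFRA replicate 2, at 121 CPM, lay inside the DH-LMP2A range, and without it Phgdh passed in kFRA against both other genotypes. Psph, which completes the route, was at 15.7 to 23.0 CPM in kFRA and 14.6 to 18.2 CPM in DH-LMP2A. Psat1, which acts between them, was at 22.0 to 33.8 CPM in kFRA and 25.5 to 36.9 CPM in DH-LMP2A. The exons of Psph share 452 bases with Cct6a on the opposite strand, and whether the counting used strand is not stated, so Psph is uncertain.

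Shmt2 and Mthfd2 take serine on into the folate cycle of mitochondria. Shmt2 was at 135 to 210 CPM in kFRA, 107 to 137 CPM in DH-LMP2A and 111 to 167 CPM in WT. It shares 32 exon bases with Ndufa4l2 on the opposite strand, which had 15 to 76 counts per library, and its count is uncertain to that extent. Mthfd2 was at 23.1, 24.98 and 60.5 CPM in the kFRA libraries and at 22.9 to 32.1 CPM in DH-LMP2A. The high value was that of kFRA replicate 3, and without it the log2 fold change of Mthfd2 turned from 0.44 to −0.15.

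The enzymes of the proline route differed from each other. Pycr1, which makes proline in the final step, was at 87.0, 73.3 and 82.7 CPM in kFRA and at 60.7, 42.5 and 68.2 CPM in DH-LMP2A. In WT it was at 54.95, 65.4 and 87.8 CPM. The kFRA libraries lay above all DH-LMP2A libraries and among those of WT (log2 fold change 0.50 against DH-LMP2A, SE 0.214, adjusted p = 0.206 by edgeR). Aldh18a1, which opens the route from glutamate, was at 71.1, 84.9 and 83.0 CPM in kFRA and at 98.3, 107 and 135 CPM in WT. In DH-LMP2A it was at 89.5, 77.4 and 102 CPM. The kFRA libraries thus lay below all WT libraries, at a log2 fold change of −0.51 (SE 0.161, adjusted p = 0.0559 by edgeR), which the DESeq2 Wald test called. Cth, which releases cysteine on the route that Cbs opens, was near the limit of detection, with 9 to 28 counts per library.

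Of the 9 tested enzymes of synthesis, 1 was past the threshold in kFRA against DH-LMP2A (median log2 fold change 0.43, 6 positive) and none in the other comparisons. In DH-LMP2A against WT 1 of 9 was positive with TMM (median −0.25), but 7 of 9 with library size alone (median 0.11), so that the direction of this group depended on the scaling. Without kFRA replicate 3 the median in kFRA against DH-LMP2A was 0.17, and that in kFRA against WT went from 0.30 to 0.07. At an unadjusted p under 0.05, Aldh18a1 was lower in kFRA than in WT and Asns lower in DH-LMP2A than in WT, and the DESeq2 Wald test called the same genes.

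**Figure D3:**
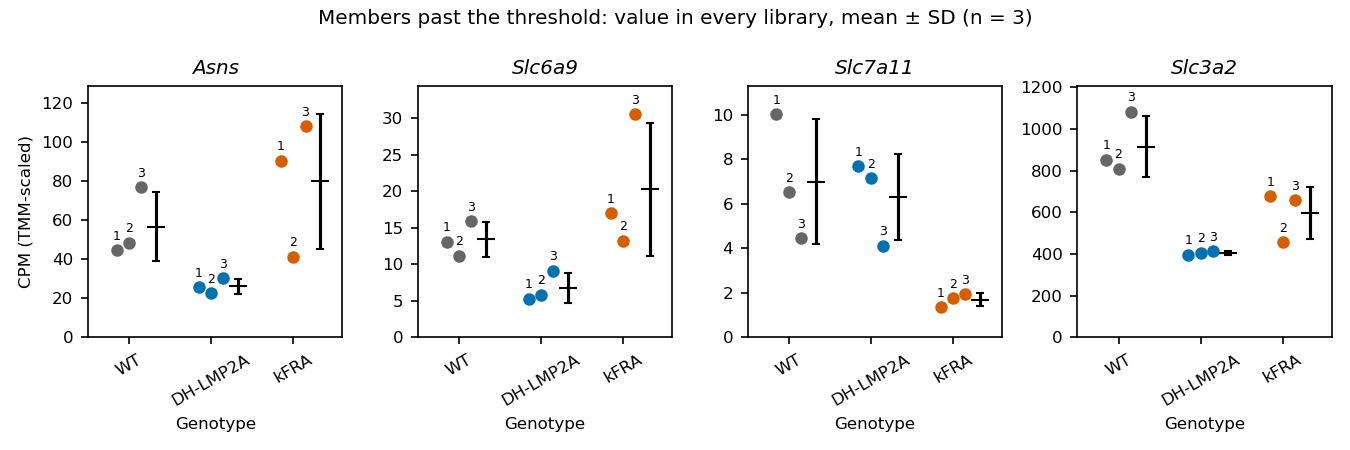
Asns, Slc6a9, Slc7a11 and Slc3a2 in CPM on the y axis for each library (points, numbered by replicate) with the mean and SD of 3 libraries beside them, by genotype on the x axis. The kFRA points of Slc7a11 all lie below 2 CPM, and the DH-LMP2A points of Slc3a2 lie close together between 396 and 413 CPM.

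The transporters held the other genes that passed, and they moved in different directions. Slc6a9, the glycine transporter GlyT1, lies on the plus strand of chromosome 4 (117834506 to 117875198). It was at 17.03, 13.2 and 30.6 CPM in kFRA and at 5.33, 5.85 and 9.15 CPM in DH-LMP2A. In WT it was at 13.1, 11.2 and 15.9 CPM. The kFRA libraries lay above all DH-LMP2A libraries, and the DH-LMP2A libraries below all WT libraries. Slc6a9 rose 2.99-fold in kFRA over DH-LMP2A (log2 fold change 1.58, SE 0.331, adjusted p = 0.0269 by edgeR). For kFRA against WT its log2 fold change was 0.60 (SE 0.323, adjusted p = 0.216 by edgeR), and in DH-LMP2A against WT −0.98 (SE 0.329, adjusted p = 0.0876 by edgeR). The call in kFRA against DH-LMP2A was lost without DH-LMP2A replicate 1 (adjusted p = 0.112) or 2 (0.0981) and without kFRA replicate 1 (0.0638) or 3 (0.0668), and kept without DH-LMP2A replicate 3 (0.0236) and kFRA replicate 2 (0.00683). It was also lost with the marker covariate (0.162), the Xist covariate (0.0526) and the 6 libraries alone (0.0639). Of its 5141 exon bases, 1429 are shared with Ccdc24, 511 with Gm17114 and 46 with B4galt2 on the opposite strand, which makes the count uncertain. In the table Ccdc24 had 1 count in all 9 libraries together, Gm17114 none, and B4galt2 between 2 and 8 per library.

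Slc7a11, the light subunit of the exchanger that takes up cystine for glutamate, was the member that fell in kFRA against both other genotypes. It lies on the minus strand of chromosome 3 (49892526 to 50443614). It was at 1.37, 1.76 and 1.95 CPM in kFRA, from 20, 37 and 31 counts. In DH-LMP2A it was at 7.70, 7.14 and 4.12 CPM, and in WT at 10.03, 6.53 and 4.46 CPM. Every kFRA library lay below every library of the other genotypes, and DH-LMP2A and WT overlapped. Slc7a11 fell by 1.90 on the log2 scale against DH-LMP2A (SE 0.359, adjusted p = 0.0167 by edgeR), 3.72-fold, and by 2.05 against WT (SE 0.361, adjusted p = 0.00539 by edgeR). In DH-LMP2A against WT the log2 fold change was −0.15 (SE 0.332, adjusted p = 0.836 by edgeR). The call against WT held in each of the 16 other fits. The call against DH-LMP2A was lost with the marker covariate (adjusted p = 0.105) and without DH-LMP2A replicate 1 (0.0749) or 2 (0.0641) or kFRA replicate 1 (0.0862) or 3 (0.0519). The markers of B cells and of myeloid cells moved in the same direction in part. In kFRA 2 of 8 and 2 of 8 were lower than in DH-LMP2A (3.3% of all genes), and 5 of 8 and 3 of 8 lower than in WT (11.1%). Against DH-LMP2A, 4 of the 8 myeloid markers had a positive log2 fold change (median −0.05), and 0 of the 8 B cell markers. The marker covariate averages these markers with those of T and NK cells and of erythroid cells. The part of the B cell and myeloid markers alone in the level of Slc7a11 was not tested.

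Slc3a2 encodes the heavy subunit that carries Slc7a11, Slc7a5 and Slc7a6 to the cell surface, and lies on the minus strand of chromosome 19 (8706882 to 8723369). It had the highest level of the members per kilobase of exon, at 181 CPM per kb over the 9 libraries. It was at 396, 406 and 413 CPM in DH-LMP2A and at 852, 808 and 1082 CPM in WT. In kFRA it was at 678, 455 and 658 CPM. The groups did not overlap at all, with DH-LMP2A lowest, kFRA between and WT highest. Slc3a2 fell by 1.17 on the log2 scale in DH-LMP2A against WT (SE 0.198, adjusted p = 0.00513 by edgeR), 2.26-fold, and this call held in each of the 16 other fits. kFRA lay above DH-LMP2A (log2 fold change 0.56, SE 0.196, adjusted p = 0.144 by edgeR) and below WT (−0.61, SE 0.196, adjusted p = 0.058 by edgeR) without passing by edgeR, while the DESeq2 Wald test called both.

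The partners of Slc3a2 did not follow its order. Slc7a5, which with Slc3a2 takes up large neutral amino acids, was at 133, 149 and 316 CPM in kFRA, 114 to 177 CPM in DH-LMP2A and 96.1 to 174 CPM in WT. The high value was again that of kFRA replicate 3, without which the log2 fold change against DH-LMP2A went from 0.45 to −0.05. Slc7a6, which exchanges cationic for neutral amino acids, was at 23.5 to 33.8 CPM in kFRA and 30.5 to 40.7 CPM in DH-LMP2A. WT had 25.8 to 32.2 CPM of Slc7a6.

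The carriers of cationic amino acids, Slc7a1 and Slc7a3, also differed. Slc7a3, on the X chromosome, was at 3.01, 5.42 and 3.26 CPM in kFRA and at 7.32, 7.01 and 6.59 CPM in DH-LMP2A, without overlap (log2 fold change −0.83, SE 0.328, adjusted p = 0.182 by edgeR). In WT it was at 3.95, 4.18 and 8.22 CPM, which overlaps both, with kFRA replicates 1 and 3 below every WT library. Slc7a1 was at 43.0 to 96.7 CPM in kFRA, 46.2 to 65.1 CPM in DH-LMP2A and 58.5 to 85.9 CPM in WT.

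The sodium-coupled carriers of small neutral amino acids were close to each other across the genotypes. Slc38a2 was at 137 to 206 CPM and Slc1a5, which carries glutamine, at 132 to 181 CPM over all 9 libraries. Slc1a4 was at 4.93, 6.57 and 15.2 CPM in kFRA and 5.75 to 7.23 CPM in DH-LMP2A. As with Mthfd2 and Slc7a5, the high library was kFRA replicate 3, and without it the log2 fold change of 0.51 became −0.12.

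Of the 10 transporters, 1 rose and 1 fell in kFRA against DH-LMP2A (median log2 fold change 0.18), and 1 fell in each comparison with WT (medians −0.04 and −0.14). With library size alone the medians were 0.06, 0.18 and 0.20, so that the sign in the comparisons with WT depended on the scaling. The median in kFRA against DH-LMP2A depended on 1 library: without kFRA replicate 3 it was −0.08 with 3 of 10 positive, against 7 of 10 with it, and without kFRA replicate 2 it was 0.34.

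The tRNA synthetases attach each amino acid to its tRNA, and none of the 12, nor Xpot, passed in any comparison in the main edgeR fit (TMM scaling, all 9 libraries, no block or covariate). With the replicate number as a block, Cars, Nars, Sars and Yars were called higher in kFRA than in WT. With library size alone, edgeR called 8 higher in kFRA than in WT (Aars, Cars, Lars, Mars, Nars, Sars, Tars and Yars) and 3 higher in DH-LMP2A than in WT (Aars, Lars and Yars), where 16.6% and 14.5% of all genes were called higher. At an unadjusted p under 0.05, 1 (Nars) had a higher level in kFRA than in DH-LMP2A, 7 were higher in kFRA than in WT (Cars, Lars, Mars, Nars, Sars, Tars and Yars) and none in DH-LMP2A against WT, where 10.3%, 15.2% and 10.9% of all genes were higher. The DESeq2 Wald test called 0, 4 (Cars, Nars, Sars and Yars) and 0, beside 4.16%, 10.8% and 7.21% of all genes. Without kFRA replicate 2, edgeR called Cars, Nars and Sars against DH-LMP2A and Cars, Lars, Mars, Nars, Sars, Tars and Yars against WT, where 11.8% and 19% of all genes were called higher (11.2% and 20% lower). The median log2 fold change of the 13 was 0.17 in kFRA against DH-LMP2A (11 positive), 0.41 in kFRA against WT (10 positive) and 0.12 in DH-LMP2A against WT (10 positive). With library size alone these medians were 0.02, 0.61 and 0.46.

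Nars, the asparaginyl-tRNA synthetase, had the highest level of the synthetases per kilobase, at 90.2 CPM per kb. It was at 314, 230 and 364 CPM in kFRA and at 221, 189 and 200 CPM in DH-LMP2A. In WT it was at 201, 176 and 243 CPM. The kFRA libraries lay above all DH-LMP2A libraries (log2 fold change 0.58, SE 0.195, adjusted p = 0.134 by edgeR), and kFRA replicate 2 lay below the highest WT library. Tars, the threonyl-tRNA synthetase, was at 78.3, 75.4 and 116 CPM in kFRA and at 70.9, 60.7 and 69.5 CPM in DH-LMP2A. Its WT values of 54.6, 61.6 and 79.6 CPM overlapped those of kFRA (log2 fold change against DH-LMP2A 0.42, SE 0.2, adjusted p = 0.247 by edgeR).

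Against WT, the synthetases for cysteine and tyrosine came nearest to the threshold. Cars was at 86.3, 72.6 and 148 CPM in kFRA and at 58.5, 50.2 and 67.3 CPM in WT, without overlap (log2 fold change 0.80, SE 0.253, adjusted p = 0.0563 by edgeR). In DH-LMP2A it was at 64.7, 66.1 and 82.4 CPM. Yars was at 140.0, 130.0 and 226 CPM in kFRA, at 132, 121 and 123 CPM in DH-LMP2A and at 93.1, 98.8 and 119 CPM in WT. Both other genotypes lay above WT in Yars, with a log2 fold change of 0.67 in kFRA (SE 0.210, adjusted p = 0.0539 by edgeR) and 0.28 in DH-LMP2A. Eprs, which charges the tRNAs of glutamate and proline, varied little. It was at 143, 132 and 129 CPM in kFRA, at 137, 123 and 124 CPM in DH-LMP2A and at 118, 110 and 128 CPM in WT, so that the separation of kFRA from WT was a log2 fold change of 0.18. Sars, for serine, was at 119 to 256 CPM in kFRA, 116 to 151 CPM in DH-LMP2A and 106 to 131 CPM in WT, with a log2 fold change of 0.72 against WT (SE 0.254, adjusted p = 0.0778 by edgeR).

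The kFRA libraries were not the highest for every gene of this group. Xpot, which exports tRNA from the nucleus, was at 53.3, 63.4 and 60.1 CPM in kFRA and at 70.6, 66.3 and 68.7 CPM in DH-LMP2A, without overlap (log2 fold change −0.22). Its WT values were 63.3, 59.3 and 66.5 CPM. Iars, for isoleucine, was at 69.5 to 86.2 CPM in kFRA and 85.9 to 114 CPM in DH-LMP2A. Wars, for tryptophan, was at 40.8 to 63.8 CPM in kFRA, 44.1 to 53.2 CPM in DH-LMP2A and 49.9 to 65.3 CPM in WT. The remaining synthetases, Aars (alanine), Gars (glycine), Lars (leucine) and Mars (methionine), had log2 fold changes between 0.14 and 0.38 in kFRA against DH-LMP2A and none passed. Aars, Cars, Mars and Yars share exon bases with other annotated genes, Mars 68 with Ddit3, Yars 30 with C77080, Cars 211 with Gm15580 and Aars 1326 with Exosc6, so their counts are uncertain to that extent.

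Counted by separation of libraries, 6 members lay higher and 3 lower in kFRA than in DH-LMP2A without overlap, beside 11.6% and 13.9% of all genes (25.6% in either direction). Against WT, 3 lay higher and 3 lower in kFRA (14.2% and 20.2% of all genes, 34.3% in either direction), and in DH-LMP2A against WT 1 higher and 3 lower (17.5% and 19.1% of all genes, 36.6% in either direction). The 9 of 32 members in kFRA against DH-LMP2A stand near that background, and the 6 and 4 in the comparisons with WT below it.

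**Figure D4:**
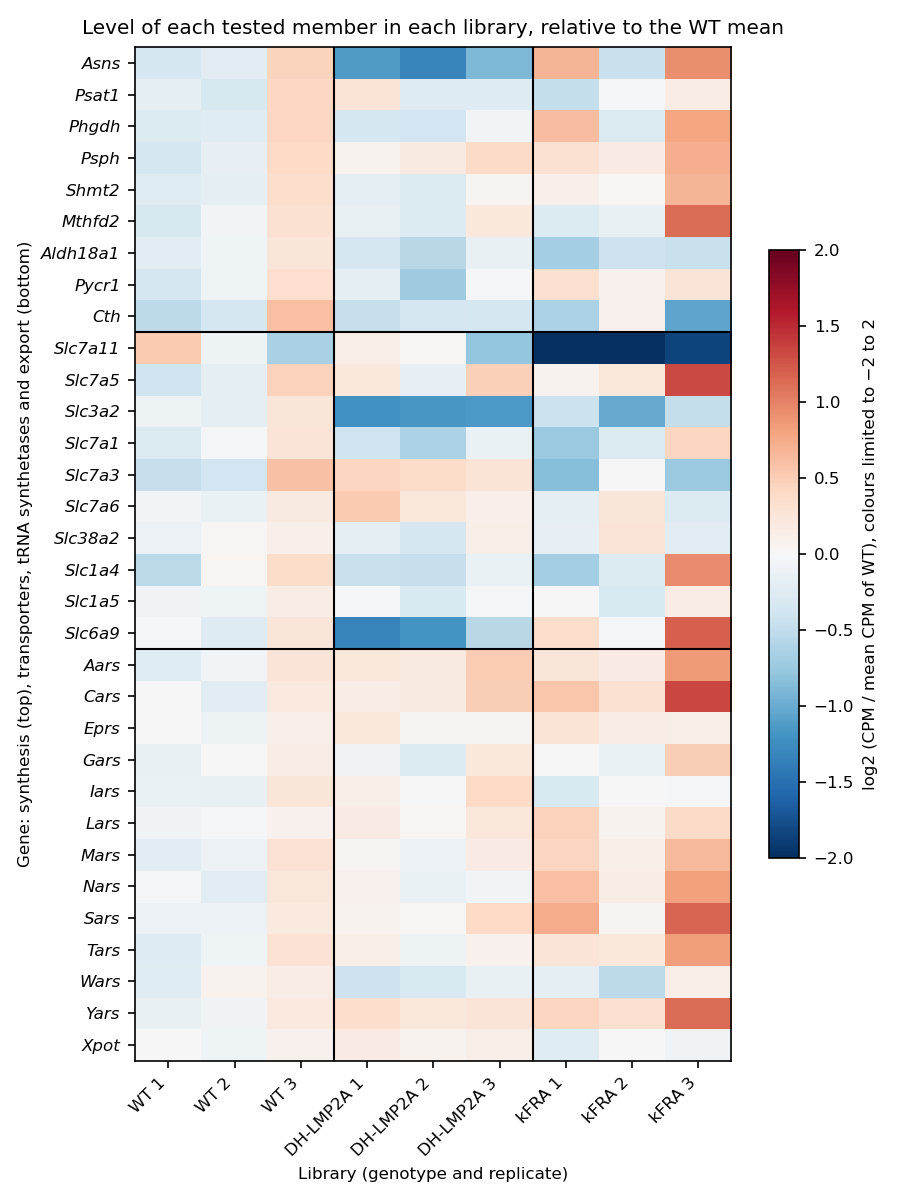
Level of each of the 32 tested members in each library as log2 of its CPM over the WT mean (red higher, blue lower, colours limited to −2 to 2). The row of Slc7a11 is blue in all 3 kFRA libraries, Slc3a2 is blue in all 3 DH-LMP2A libraries, and the kFRA replicate 3 column is the reddest of the kFRA columns.

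The members varied between libraries of the same genotype in a shared way. WT replicate 3 had the highest WT value for 31 of the 32 tested members, DH-LMP2A replicate 3 the highest for 22 and kFRA replicate 3 the highest for 21. The lowest values were most often those of kFRA replicate 2 (18 members), DH-LMP2A replicate 2 (22) and WT replicate 1 (20). The summed level of the 33 genes was 3516, 2956 and 4391 CPM in kFRA replicates 1, 2 and 3, 2837, 2591 and 3089 CPM in DH-LMP2A, and 3045, 3083 and 3994 CPM in WT. In each genotype the library with the highest sum was also the one with the highest immunoglobulin share, at 55.4% in WT, 45.4% in kFRA and 32.5% in DH-LMP2A. With library size alone the sums were 3330, 3616 and 3931 CPM in kFRA, 3250, 3024 and 3251 in DH-LMP2A, and 2942, 2806 and 3113 in WT. On that scale kFRA replicate 2 was no longer the lowest kFRA library, and WT replicate 3 was highest for 19 members in place of 31. The part of the immunoglobulin share in these orders was not tested.

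The members were about as variable as other genes. Their median coefficient of variation over 3 libraries was 13.3% in DH-LMP2A, 23.2% in kFRA and 17.8% in WT, beside 12.6%, 22.1% and 16.0% over all tested genes. In kFRA the most variable were Slc1a4 (62.2%), Mthfd2 (58.3%) and Slc7a5 (50.8%), and the least variable Eprs (5.53%). In DH-LMP2A, Slc3a2 had a coefficient of variation of 2.06%.

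**Figure D5:**
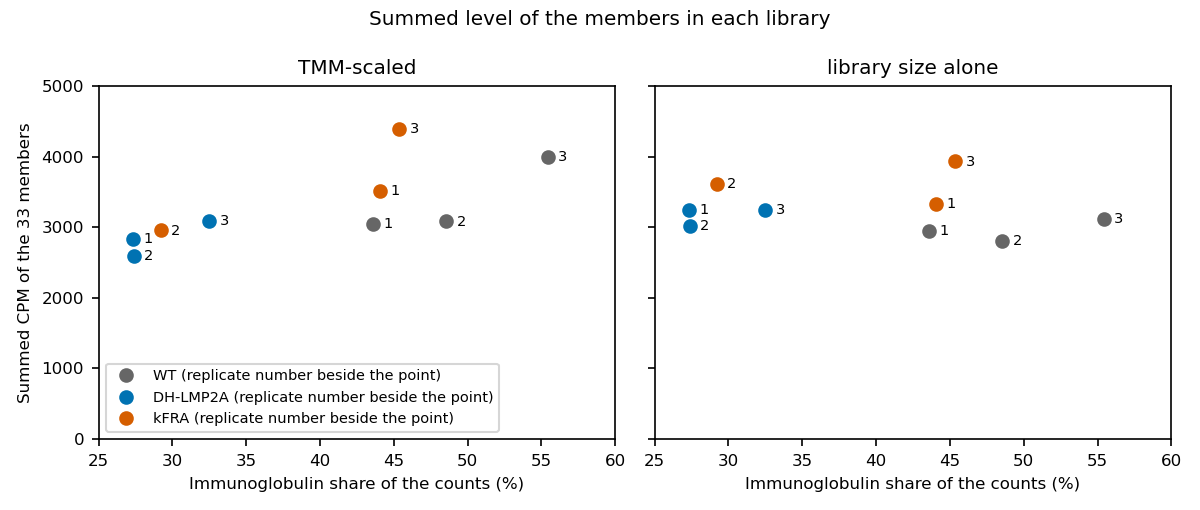
Summed CPM of the 33 members (y axis) against the share of immunoglobulin genes in the counts in percent (x axis) for the 9 libraries, scaled by TMM on the left and by library size alone on the right. On the left kFRA replicate 3 is highest at 4391 CPM and DH-LMP2A replicate 2 lowest at 2591 CPM, and on the right all libraries lie between 2806 and 3931 CPM.

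Per kilobase of merged exon, the levels over the 9 libraries spanned a wide range. After Slc3a2 and Nars came Phgdh (63.8 CPM per kb), Shmt2 (59.7) and Slc7a5 (42.5). At the lower end were Slc7a11 (0.360 CPM per kb, over 13922 exon bases), Cth (0.348) and Cbs (0.0538). Because all annotated exons are merged, genes with long, seldom used exons appear lower on this scale.

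Genes related to the 33 were counted in lists. Of 11 other cytosolic synthetase and complex genes, none passed in kFRA against DH-LMP2A or in DH-LMP2A against WT. Farsa, a subunit of the phenylalanyl-tRNA synthetase, rose in kFRA against WT (log2 fold change 0.57, edgeR adjusted p = 0.0171), where 6.68% of all genes rose. This call was lost with the marker covariate and without kFRA replicate 1 or 3 or WT replicate 1 or 2. At an unadjusted p under 0.05, 4 of these 11 were higher in kFRA than in DH-LMP2A (10.3% of all genes). None differed between DH-LMP2A and WT (10.9% of all genes higher and 15.7% lower), and the DESeq2 Wald test called none in either comparison. The next by p-value were Kars (0.62 in kFRA against DH-LMP2A, adjusted p = 0.132) and Hars (0.60 in kFRA against WT, adjusted p = 0.0823), for lysine and histidine. Their median log2 fold changes were 0.30, 0.31 and −0.13 in the 3 comparisons.

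The synthetases of mitochondria are encoded by separate genes, and 16 were tested. Cars2 rose in kFRA against DH-LMP2A, with 47.8, 33.02 and 55.2 CPM in kFRA against 25.9, 26.9 and 22.0 CPM (log2 fold change 0.86, edgeR adjusted p = 0.0486). Against WT, 4 rose in kFRA, namely Cars2 (0.99, edgeR adjusted p = 0.0124), Tars2 (0.45, 0.0272), Sars2 (0.70, 0.028) and Hars2 (0.43, 0.0385). Over all genes, 1.73% rose in kFRA against DH-LMP2A and 6.68% in kFRA against WT. No gene of this list fell in either comparison, and none of these calls was kept with the covariate of other spleen cell markers. Of the 16 other fits, Cars2 was called in 5 against DH-LMP2A and in 14 against WT, and Sars2, Tars2 and Hars2 in 11, 9 and 7 against WT. Aars2 was at a log2 fold change of 0.62 in kFRA against DH-LMP2A (edgeR adjusted p = 0.057). In DH-LMP2A against WT none of the 16 passed. There 1 was higher and 2 lower at an unadjusted p under 0.05 (10.9% and 15.7% of all genes), and none was called by the DESeq2 Wald test.

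Of 18 other tested enzymes of amino acid and folate metabolism, Ass1, which joins citrulline and aspartate on the way to arginine, fell in both comparisons with WT. It was at 11.8, 9.09 and 13.2 CPM in kFRA, at 18.5, 19.5 and 19.1 CPM in DH-LMP2A and at 32.9, 29.2 and 43.8 CPM in WT. The groups did not overlap, and the log2 fold change was −1.64 in kFRA (edgeR adjusted p = 0.00046) and −0.89 in DH-LMP2A (edgeR adjusted p = 0.0129) against WT. Bcat1, which starts the breakdown of branched-chain amino acids, rose in kFRA against WT (1.65, edgeR adjusted p = 0.0277) with 35.4, 10.7 and 41.2 CPM against 7.60, 8.42 and 11.9 CPM, kFRA replicate 2 again lying with the WT libraries. Mthfd1, the cytosolic relative of Mthfd2, fell in that comparison (−0.72, edgeR adjusted p = 0.0498). Of the 18, 1 thus rose and 2 fell in kFRA against WT (6.68% and 11.1% of all genes), and 1 fell in DH-LMP2A against WT (7.3%). In kFRA against WT the call of Ass1 held in 16 of the 16 other fits, that of Bcat1 in 10 and that of Mthfd1 in 5, and the call of Ass1 in DH-LMP2A was lost without DH-LMP2A replicate 1. None of the 18 passed in kFRA against DH-LMP2A, where 4 were higher and 2 lower at an unadjusted p under 0.05 (10.3% and 12.1% of all genes). The DESeq2 Wald test called 3 higher and 1 lower there (4.16% and 5.74% of all genes).

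Among 15 other transporters, Slc7a2 and Slc25a22 rose and Slc1a1 fell in kFRA against DH-LMP2A, where 1.73% of all genes rose and 3.3% fell. Slc7a2, another carrier of cationic amino acids, was at 4.86, 20.1 and 8.47 CPM in kFRA, 2.88, 2.505 and 2.11 CPM in DH-LMP2A and 18.2, 11.6 and 9.49 CPM in WT. DH-LMP2A was thus the low genotype, with log2 fold changes of 2.16 in kFRA against DH-LMP2A (edgeR adjusted p = 0.0361) and −2.39 in DH-LMP2A against WT (edgeR adjusted p = 0.0124). Slc25a22, which carries glutamate into mitochondria, had a log2 fold change of 0.89 (edgeR adjusted p = 0.0237). Slc1a1, a glutamate carrier, was at 0.137 to 0.619 CPM in kFRA and 1.86 to 2.56 CPM in DH-LMP2A (−2.41, edgeR adjusted p = 0.0141). Its kFRA values came from 2, 13 and 6 counts, near the limit of detection, and it was not tested with a mean of at least 5 CPM. In kFRA against DH-LMP2A all 3 calls were lost with the marker covariate and without kFRA replicate 3, and those of Slc7a2 and Slc25a22 also with library size alone and without any 1 of the DH-LMP2A libraries. The call of Slc7a2 in DH-LMP2A against WT held in 16 of 16 fits. None of the 15 passed in kFRA against WT. There 3 were lower at an unadjusted p under 0.05 (19.8% of all genes) and 1 was called lower by the DESeq2 Wald test (13.9% of all genes).

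Of 17 tested regulators and targets of the amino acid response, Ddit3 rose in kFRA against both other genotypes. It was at 48.8, 33.3 and 47.2 CPM in kFRA, at 17.6, 20.6 and 26.4 CPM in DH-LMP2A and at 21.2, 16.0 and 22.8 CPM in WT. Its exons share 68 bases with those of Mars on the opposite strand. Ppp1r15a, which helps to reverse the translational arrest upstream of ATF4, rose in kFRA against WT (log2 fold change 0.72, edgeR adjusted p = 0.0375), and Cebpb, a C/EBP partner of ATF4, fell in DH-LMP2A against WT (−1.07, edgeR adjusted p = 0.0385). With the marker covariate these calls, those of Ddit3 included, were all lost. Of the 16 other fits, Ddit3 was called in 9 against DH-LMP2A and in 15 against WT, and Ppp1r15a in 10. Cebpb was called in 8, and not with library size alone, without any 1 of the DH-LMP2A libraries, or without WT replicate 2 or 3. Atf4 was at 504, 258 and 492 CPM in kFRA, at 264, 230 and 257 CPM in DH-LMP2A and at 209, 235 and 307 CPM in WT. kFRA replicate 2 thus lay inside the range of the other genotypes, as it did for Phgdh and Bcat1. Atf4 did not pass by edgeR, though at an unadjusted p under 0.05 it was higher in kFRA against both other genotypes. The DESeq2 Wald test called Atf4 higher in kFRA against WT. Without kFRA replicate 2, edgeR called Atf4 higher in kFRA against both other genotypes. Eif2ak4, the sensor of uncharged tRNA, was at 13.8, 24.6 and 11.9 CPM in kFRA, with log2 fold changes of −0.32 against DH-LMP2A (edgeR adjusted p = 0.49) and −0.44 against WT (edgeR adjusted p = 0.256). Without kFRA replicate 2 it was called lower in both. At an unadjusted p under 0.05, 4 of the 17 were higher and 0 lower in kFRA against DH-LMP2A (10.3% and 12.1% of all genes). Against WT these were 5 and 1 in kFRA (15.2% and 19.8%) and 1 and 2 in DH-LMP2A (10.9% and 15.7%). The DESeq2 Wald test called 2 and 0, 5 and 1, and 1 and 1 (4.16% and 5.74%, 10.8% and 13.9%, 7.21% and 10.6% of all genes).

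Set beside the promoter windows, the 9 members with a CARE core had log2 fold changes from −1.90 to 1.60 in kFRA against DH-LMP2A, with 7 of 9 positive and a median of 0.40. The extremes were Slc7a11, with 2 cores, and Asns, with 1, while Slc6a9 rose without a match in its windows. In kFRA against WT 7 of 9 were positive, with a median of 0.22, and in DH-LMP2A against WT 4 of 9, with a median of −0.03. Of all 32 tested members, these 9 included, 24, 19 and 14 were positive in the 3 comparisons, with medians of 0.23, 0.20 and −0.04. The 32 include members that had no promoter window and were not searched (Cth, Slc7a5, Slc7a3, Slc1a5, Cars, Lars, Mars, Nars and Wars). Over all genes 49.3%, 47.3% and 49.1% were positive. A difference between the searched members with and without a core was not tested.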

How the data were processed

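The values are whole-number counts per gene, not normalized, which the authors deposited as 1 table in the layout of featureCounts, per the file headers. The submitters' processing notes name STAR 2.4.0a, featureCounts, Subread 1.5.0-p3, DESeq2 and the builds mm10 and GRCm38. The strand setting and the handling of multimapping reads are not given in the sources used here. Libraries came from a stranded kit for polyadenylated RNA, per the labels' protocols.

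Counts were tested with edgeR 4.0.16 (R 4.3.3): filterByExpr within genotypes, TMM scaling, a quasi-likelihood fit of all 9 libraries with a coefficient per genotype, 2-sided F tests of the 3 contrasts, and Benjamini-Hochberg adjustment over 14199 genes with a threshold of 0.05. The SE is the log2 fold change divided by the square root of F. Replicates were compared first, and none agreed within sampling noise (chi-square per degree of freedom 17.3 to 163.9). The labels give 1 spleen per library, so p-values measure the spread between mice. Of the 33 genes, 26 had the same span in GENCODE M21 and all overlapped it. Exons shared with other genes were found in that annotation and in the table. The procedure was tested on simulated data.

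The members, the lists of related genes and of markers, the motifs and the alternatives were chosen with earlier results of these data known. All members are named, with values per library where a gene passed or its libraries did not overlap, and of each related list the 3 genes with the smallest p-value, those past the threshold where few, and Atf4, Ddit3 and Eif2ak4. A gene of a related list that this rule names and a promoter stretch are not reported here. The marker lists hold 8 genes each, of which 1 erythroid gene was not found, and 1 of 17 mitochondrial synthetases was not found. The alternatives were DESeq2 size factors, library size alone, no filter, a mean of at least 5 CPM, immunoglobulin genes left out, the replicate number as a block, covariates of other spleen cell markers and of Xist, the 6 libraries alone, the Wald test of DESeq2 1.42.0, and each replicate left out. The marker covariate did not overlap between kFRA and the other genotypes, so it is confounded with both kFRA contrasts.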

Additional observations from a re-analysis of the deposited data

How the results depend on the processing

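The numbers of members past the threshold in kFRA against DH-LMP2A (3), kFRA against WT (1) and DH-LMP2A against WT (1) changed with several choices, and the cause was not tested. In kFRA against DH-LMP2A it was 0 with the marker covariate, 1 with the Xist covariate or the 6 libraries alone, and 0 to 8 when a replicate was left out, the 8 without kFRA replicate 2 and 0 without DH-LMP2A replicate 1 or 2 or kFRA replicate 1 or 3. In kFRA against WT it was 10 with library size alone, 3 without a filter or without immunoglobulin genes, 7 with the DESeq2 Wald test, and 1 to 11 when a replicate was left out, the 11 without kFRA replicate 2. In DH-LMP2A against WT it was 5 with library size alone, 2 without a filter, 3 with the 6 libraries alone or the DESeq2 Wald test, and 1 whichever replicate was left out. The replicate numbers name different mice and did not pair them (same-numbered libraries correlated at −0.06, 0.20 and 0.12 between kFRA and DH-LMP2A, −0.21, 0.00 and 0.16 between kFRA and WT, and 0.06, −0.03 and 0.16 between DH-LMP2A and WT). With the replicate number as a block, 3, 7 and 3 members and 685, 2930 and 2067 of all genes passed. The 7 included 4 synthetases (Cars, Nars, Sars and Yars), and Slc7a2 and Cars2 in kFRA against DH-LMP2A and Cebpb in DH-LMP2A against WT were then no longer called. Over all genes, the 713 calls in kFRA against DH-LMP2A became 199 with the marker covariate, 1405 with the DESeq2 Wald test and 352 to 3299 when a replicate was left out. The 2523 calls in kFRA against WT became 985 with the marker covariate and 1271 to 5632 when a replicate was left out, and the 1756 in DH-LMP2A against WT 1094 with a mean of at least 5 CPM and 932 to 1408 when a replicate was left out. Both largest counts were those without kFRA replicate 2. Small differences changed sign. That of Slc7a11 in DH-LMP2A against WT was 0.17 with library size alone and −0.39 to 0.20 when a replicate was left out, with 0.09 without DH-LMP2A replicate 3 and 0.20 without WT replicate 1. In kFRA against DH-LMP2A, leaving out replicates gave −0.15 to 0.72 for Mthfd2, −0.05 to 0.69 for Slc7a5 and −0.12 to 0.79 for Slc1a4, the lowest each without kFRA replicate 3. In all, 20, 21 and 15 of the 32 members kept their direction in every alternative run in the 3 comparisons. Depth limits Cbs, with at most 11 counts in a library, and Cth, with 9 to 28.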
